A study of Mus musculus with 28 samples.

Results

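Barhl1, Barhl2, Mybpc1, Ppp1r17 and Btbd17 were followed across 7 inducible mouse embryonic stem cell lines, as 5 genes of the 19421 in the deposited table. They were chosen by name with measured values in view: the Dox effect in each line, the lines with Atoh1 against those without, and the change when Gfi1 or Pou4f3 was added. Those values are therefore given below as a description, with standard errors but with no p. The working name of the group calls them genes that follow Atoh1. With Dox, 3 of the 5 split the libraries by Atoh1, as did 2.49% of all genes tested. The Barhl2 and Btbd17 libraries with and without Atoh1 overlapped, so the name does not hold for them in every library, as described below.

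Atoh1 is a basic helix-loop-helix transcription factor that starts the differentiation of inner ear hair cells and of several neuron types, among them cerebellar granule neurons and dorsal spinal interneurons. Hair cells also need the zinc finger factor Gfi1, best known as a repressor, and the POU homeodomain factor Pou4f3. Barhl1 and Barhl2 are homeodomain factors of the BarH-like family and are known in the neurons and hair cells that arise from Atoh1-expressing progenitors. The other 3 genes are of unrelated families. Mybpc1 encodes the slow skeletal muscle form of myosin-binding protein C, Ppp1r17 a phosphatase inhibitor that is a substrate of cGMP-dependent kinase and is abundant in Purkinje cells, and Btbd17 a protein with a BTB domain.

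The lines derive from A2loxCre cells and carry a Dox-responsive cassette that ends with the fluorescent reporter mVenus, with 2A peptides between the factors, FLAG on Atoh1 and MYC on Pou4f3. The cassette holds Atoh1 in iAtoh1, Gfi1 in iGfi1, Pou4f3 in iPou4f3, Gfi1 and Atoh1 in iG+A, Pou4f3 and Atoh1 in iP+A, Gfi1 and Pou4f3 in iG+P, and all 3 factors in iGPA. Dox libraries are mVenus+ cells sorted at day 6 of embryoid body (EB) differentiation after 48 h in 2 µg/ml doxycycline from day 4, and No Dox libraries are whole untreated EBs of the same line at day 6. Each of the 14 groups has 2 libraries, described as different clones of a line, so that p-values measure the spread between clones. Dox and sorting cannot be told apart in these groups, nor can a larger share of expressing cells be told from more RNA per cell.

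Depth was estimated at 30.3 to 48.0 M reads per library, with normalized counts adding up to between 36.8 and 40.4 M. Values are normalized counts, for which 3 reads are worth 2.45 to 3.66. Dox effects are differences of log2(normalized count + 1) between a line's Dox and No Dox libraries, which understate the change of genes with few counts, and ± gives 1 SE from the limma fit over 16837 genes and all 28 libraries (n = 2 libraries per group). A gene was past the threshold at a limma adjusted p under 0.05 with a log2 change of at least 1.5. The cassettes were expressed as labelled: Atoh1 reached 12816 to 21242 normalized counts in the 8 Dox libraries of its 4 lines and at most 32.5 in the other 6. Gfi1 reached 8119 to 12487 in its 4 lines. Pou4f3 reached 4694 and 5381 in iPou4f3, less than in iP+A (12878 and 10868), iGPA (13037 and 15115) and iG+P (17590 and 19883). All 5 genes passed the filter on low values, but Barhl2 passed only through Dox libraries, since it reached 10 normalized counts in 9 of them and in 0 of the 14 No Dox libraries.

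In the mm9 assembly (NCBIM37), to which the reads were assigned, Barhl1 lies at chr2:28763199-28772188, Barhl2 at chr5:106881533-106887469, Mybpc1 at chr10:87981024-88067897 and Btbd17 at chr11:114652531-114657259, all on the minus strand. Ppp1r17 lies at chr6:55967509-55982682 on the plus strand. All 5 are annotated as protein-coding, and no 2 of them share a chromosome. RefSeq promoter windows of 300 bases, from 250 before the transcription start to 50 from it, were found for 4 of the 5 genes in the table for GRCm38.p6, with 2 windows for Barhl1. Ppp1r17 had no entry. The windows are shown because Atoh1, the factor in 4 of the 7 cassettes, binds E-boxes, and the capitals mark every CANNTG, the general E-box, on either strand.
Barhl1 (chr2:28916619-28916918, minus strand): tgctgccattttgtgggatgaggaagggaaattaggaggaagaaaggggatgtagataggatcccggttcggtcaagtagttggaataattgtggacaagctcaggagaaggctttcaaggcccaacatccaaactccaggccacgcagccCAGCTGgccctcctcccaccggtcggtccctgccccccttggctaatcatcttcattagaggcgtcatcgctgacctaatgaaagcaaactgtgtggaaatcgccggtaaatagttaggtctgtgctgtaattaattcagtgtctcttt
Barhl2 (chr5:106458117-106458416, minus strand): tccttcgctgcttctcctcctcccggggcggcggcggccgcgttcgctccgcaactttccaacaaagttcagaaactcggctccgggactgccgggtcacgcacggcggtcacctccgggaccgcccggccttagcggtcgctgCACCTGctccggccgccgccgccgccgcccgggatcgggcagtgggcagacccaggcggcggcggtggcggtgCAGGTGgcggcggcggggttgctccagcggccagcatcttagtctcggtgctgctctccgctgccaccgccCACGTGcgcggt
Mybpc1 (chr10:88605103-88605402, minus strand): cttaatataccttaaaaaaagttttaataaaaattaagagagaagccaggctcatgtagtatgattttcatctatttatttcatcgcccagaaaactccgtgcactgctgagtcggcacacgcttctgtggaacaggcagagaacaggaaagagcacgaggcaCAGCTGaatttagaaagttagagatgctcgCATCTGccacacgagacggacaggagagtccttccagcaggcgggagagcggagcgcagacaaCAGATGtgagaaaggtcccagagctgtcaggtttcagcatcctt
Btbd17 (chr11:114795843-114796142, minus strand): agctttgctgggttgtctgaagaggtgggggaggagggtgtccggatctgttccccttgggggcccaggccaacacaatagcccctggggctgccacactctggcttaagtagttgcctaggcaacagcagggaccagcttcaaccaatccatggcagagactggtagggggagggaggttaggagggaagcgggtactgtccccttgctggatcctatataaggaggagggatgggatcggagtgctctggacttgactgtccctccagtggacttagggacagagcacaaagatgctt

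The Barhl1 window held 1 E-box, a CAGCTG whose first base lies at -99 from the start, and its other window (chr2:28912446-28912745, not shown) held a CAGCTG at -15 and another E-box at 5. The Barhl2 window held 3 E-boxes, at -106, -33 and 39, none of them CAGCTG or CAGATG. In the Mybpc1 window there were 3, a CAGCTG at -87 and CAGATG, read on either strand, at -57 and at 7. The Btbd17 window held 0. CANNTG was present in 72.3% of the 32851 windows of this length in the table, CAGCTG in 16.3% and CAGATG in 17.2%, the latter 2 being special cases of the first. AAATCA, letters found in the motif of Gfi1, stood in 14% of all windows, in the Mybpc1 window at -189 and in the second Barhl1 window at -30, and in neither the Barhl2 nor the Btbd17 window.

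With Dox, Barhl1, Mybpc1 and Ppp1r17 were higher in every library with Atoh1 than in any without it, as were 2.49% of all genes tested, Btbd17 also had high values without Atoh1, and Barhl2 was low wherever Gfi1 was present. Past the threshold upwards were 5 of 5 in iAtoh1 (background 2.89% of all genes tested), 4 of 5 in iG+A (7.35%), 5 of 5 in iP+A (4.70%) and 4 of 5 in iGPA (8.65%), the missing gene being Barhl2 in both lines that joined Gfi1 to Atoh1. In the lines without Atoh1 the counts were 1 of 5 in iGfi1 (2.15%), 2 of 5 in iPou4f3 (1.47%) and 3 of 5 in iG+P (5.16%). The genes were picked on these contrasts, so nothing is read from these counts. Several were near the threshold. Without the first No Dox library of iG+P, Barhl1 (1.26) and Mybpc1 (1.07) were no longer past it there, which left 1 of 5, and Mybpc1 was also lost without either Dox library. In iPou4f3 Barhl1 was lost without any 1 of the line's 4 libraries, and Barhl2 without 3 of the 4 and also without some libraries of other lines. Barhl2 in iAtoh1 was lost without the second No Dox library (2.80) or the first Dox library (2.78), and Btbd17 in iGfi1 without the second No Dox library (2.70) or the first Dox library (2.27). With only the groups compared, 0 of 5 were past it in iPou4f3, Barhl2 was lost in iAtoh1 and Mybpc1 in iG+P, and with a pseudocount of 0.5 Barhl2 was lost in iAtoh1 and iPou4f3. Limma without the trend also lost Barhl2 in iPou4f3. Calls were also gained: Barhl2 in iGPA with all untreated libraries as 1 control (2.28) and without either Dox library of iG+A (2.31), which makes 5 of 5 there, and Ppp1r17 in iG+P with that control (1.71) and in iPou4f3 without its second No Dox library (1.82). That control also lost Barhl1 in iPou4f3 (1.39), which left 1 of 5, and Mybpc1 in iG+P (1.18), which left 3 of 5. With a pseudocount of 5, Barhl1 was at 1.37 in both iPou4f3 and iG+P and Mybpc1 at 1.24 in iG+P. None of the 5 was past the threshold downwards in any line.

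**Figure D1:**
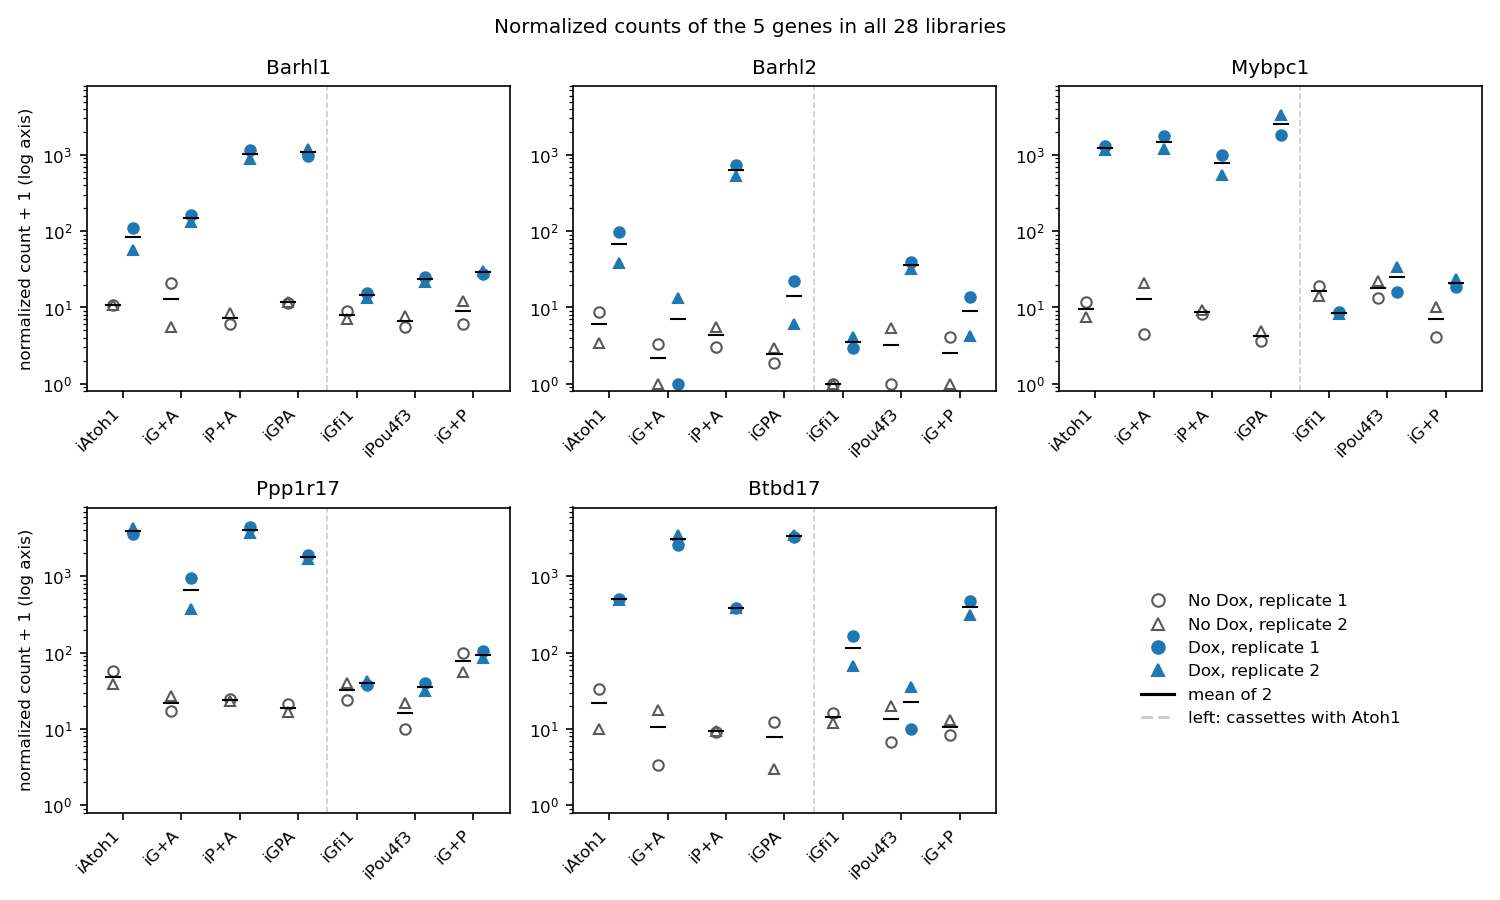
Normalized count + 1 (log axis) of the 5 genes in the 28 libraries by line, with open symbols for No Dox, filled symbols for Dox, circles and triangles for replicates 1 and 2 and bars for the mean of 2. With Dox, Mybpc1 and Ppp1r17 lie at 373 or above in the 8 libraries with Atoh1 and at 103 or below in the other 6, Barhl1 is highest where Pou4f3 and Atoh1 are joined, Btbd17 where Gfi1 and Atoh1 are joined, and Barhl2 is at 21.5 or below in every library with Gfi1.

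Barhl1 was low in the 14 No Dox libraries, at 4.48 to 19.7 normalized counts (median 7.68). With Dox it was 109 and 54.9 in the iAtoh1 libraries and 164 and 132 in iG+A. Where Pou4f3 joined Atoh1 it reached 1173 and 885 in iP+A and 953 and 1207 in iGPA. These 4 libraries stood far above the rest, and iGPA and iP+A overlapped. Without Atoh1 the Dox values were 26.5 and 29.3 in iG+P, 24.0 and 20.6 in iPou4f3 and 14.5 and 12.4 in iGfi1, so that the 8 Dox libraries with Atoh1 (54.9 or more) and the 6 without (29.3 or less) did not overlap. All 6 of the latter exceeded the No Dox libraries of their own line.

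The Dox effect on Barhl1 was 2.86 ± 0.48 in iAtoh1, 3.79 ± 0.48 in iG+A, 7.16 ± 0.48 in iP+A and 6.53 ± 0.48 in iGPA. With Pou4f3 joined to Atoh1 this effect was larger by 4.30 ± 0.67, and with Pou4f3 joined to Gfi1 and Atoh1 by 2.73 ± 0.67 (1.77 to 3.69 without 1 library). With Gfi1 added it differed by 0.93 ± 0.67 from iAtoh1 to iG+A (-0.03 to 1.89 without 1 library) and by -0.63 ± 0.67 from iP+A to iGPA. On the linear scale, the rise in iP+A (1023 normalized counts) was 11.5 times the sum of the rises in iAtoh1 and iPou4f3 (88.7), and that in iGPA (1069) was 11.3 times the sum over the 3 lines with a factor alone (95.1). In iG+A the same ratio was 1.73. The sums for lines with Pou4f3 rest on iPou4f3, where Pou4f3 itself was lowest, here and for the other genes.

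Barhl2, the close relative of Barhl1, had another pattern. Without Dox it was at 0 in 5 of 14 libraries and at most 7.82 in the others. With Dox it was 743 and 533 in iP+A, 97.8 and 36.9 in iAtoh1 and 38.3 and 31.3 in iPou4f3. In the 4 lines whose cassette holds Gfi1 it was 0 and 12.2 (iG+A), 21.5 and 5.05 (iGPA), 12.8 and 3.25 (iG+P) and 1.93 and 3.09 (iGfi1). The 8 Dox libraries with Gfi1 therefore all lay below the 6 without it (31.3 to 743), as for 5.51% of all genes tested, whereas the 8 with Atoh1 (0 to 743) overlapped the 6 without Atoh1 (1.93 to 38.3). Barhl2 was thus split by Gfi1 and not by Atoh1.

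The Dox effect on Barhl2 was 7.26 ± 1.08 in iP+A, 3.93 ± 1.08 in iPou4f3 and 3.47 ± 1.08 in iAtoh1. With Gfi1 in the cassette it was 2.31 ± 1.08 in iGPA, 1.92 ± 1.08 in iG+P and 1.00 ± 1.08 in iG+A. No fold is given for iGfi1, where both No Dox libraries were at 0 and both Dox libraries at or under what 3 reads are worth. The mean effect of the 4 Atoh1 lines exceeded that of the other 3 by 0.96 ± 0.82, against 3.60 ± 0.36 for Barhl1. This Barhl2 value includes the fitted iGfi1 effect and depended on the pseudocount, being 0.54 ± 1.03 at 0.5 and 1.40 ± 0.44 at 5. With all untreated libraries as 1 control group it was 1.87 ± 0.60. Joining Gfi1 to Atoh1 changed the Barhl2 effect by -2.48 ± 1.53 (-4.34 to -0.62 without 1 library, and -4.07 with all untreated libraries as 1 control group), and joining it to Pou4f3 with Atoh1 by -4.95 ± 1.53. On the linear scale the rise in iP+A (635) was 6.70 times the sum of the rises in iAtoh1 and iPou4f3 (94.8), while that in iGPA (11.9) was 0.122 of its sum (97.3). Its SE was more than 2 times that of Barhl1, and without the second Dox library of iG+A the effect there turned to -0.87.

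**Figure D2:**
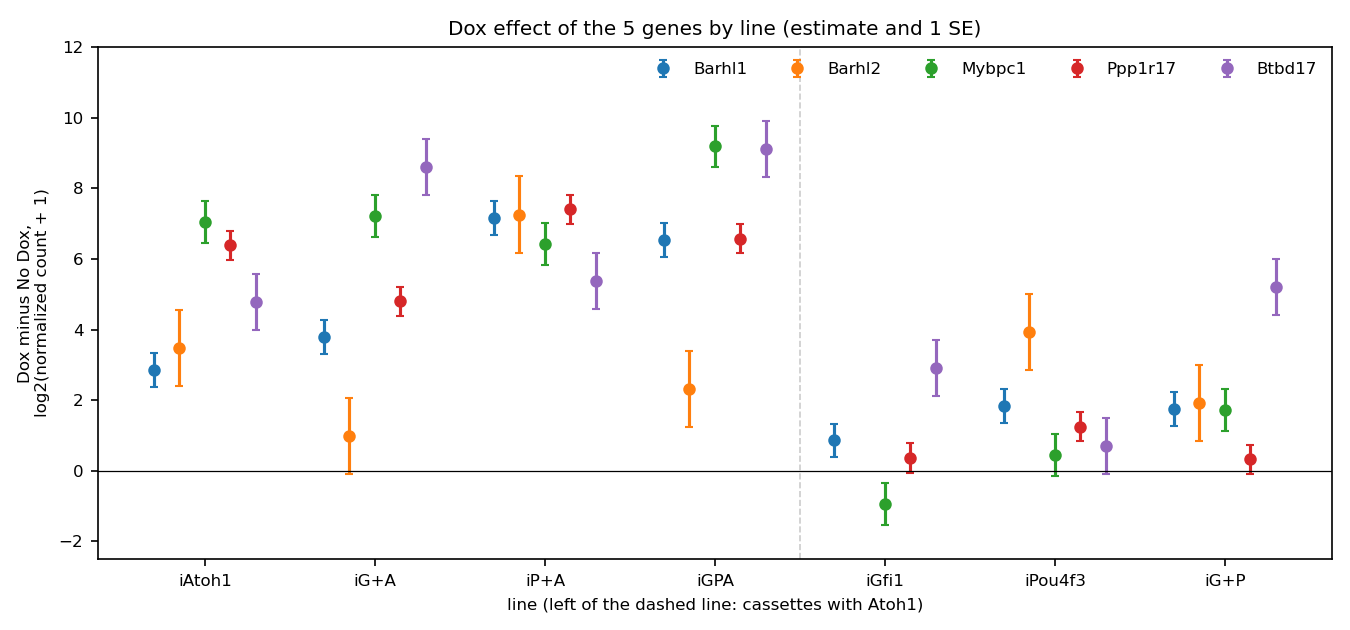
Dox minus No Dox on the log2(normalized count + 1) scale (y axis) for the 5 genes in each of the 7 lines, with bars of 1 SE from the limma fit and Barhl2 in iGfi1 left out because both of its groups are at or under 3 reads. Mybpc1 and Ppp1r17 split the lines by Atoh1, Btbd17 stands at 5.22 in iG+P with no Atoh1, and Barhl2 falls from 7.26 in iP+A to 2.31 in iGPA.

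Mybpc1 split the Dox libraries by Atoh1. It was 2.62 to 21.2 normalized counts in the 14 No Dox libraries, and with Dox 1309 and 1165 in iAtoh1, 1771 and 1190 in iG+A, 1000 and 551 in iP+A and 1829 and 3307 in iGPA. The 6 Dox libraries without Atoh1 held 7.22 to 33.3, which reaches into the No Dox range, and did not overlap the 8 with Atoh1. In iGfi1 both Dox libraries (7.73 and 7.22) were below both No Dox libraries (18.0 and 13.0). The Dox effect was 7.04 ± 0.59 in iAtoh1, where only 1 of 16837 genes rose more, 7.22 ± 0.59 in iG+A, 6.42 ± 0.59 in iP+A and 9.19 ± 0.59 in iGPA. It was -0.94 ± 0.59 in iGfi1, 0.45 ± 0.59 in iPou4f3 and 1.72 ± 0.59 in iG+P, and the Atoh1 lines exceeded the others by 7.06 ± 0.45. With Gfi1 added to Atoh1 it differed by 0.18 ± 0.83 (-0.94 to 1.30 without 1 library), and with Gfi1 added to Pou4f3 and Atoh1 it was larger by 2.77 ± 0.83 (1.73 with all untreated libraries as 1 control group).

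Because Mybpc1 is a muscle gene, skeletal muscle markers are given beside it. Of the 20 markers tested, 4 rose in iAtoh1 (2.89% of all genes tested), 11 in iG+A (7.35%), 1 in iP+A (4.70%) and 10 in iGPA (8.65%), against 2 in iGfi1 (2.15%), 0 in iPou4f3 (1.47%) and 3 in iG+P (5.16%), and 1 fell in each of iG+A, iGfi1 and iG+P. The count in iP+A was near the share of all genes. The summed level of the 22 listed markers went from 4605 to 7650 without Dox to 11095 to 16464 with it in iAtoh1. It was 5371 to 8315 without and 15860 to 21753 with Dox in iG+A, 5708 to 7407 and 19030 to 24198 in iGPA, and 7114 to 14805 and 9884 to 15409 in iP+A, where the ranges overlapped. In iP+A the gene that rose was Ttn (3.63 on the log2 scale), the giant spring protein titin. Structural markers were mixed. In the 8 Dox libraries with Atoh1, Ttn was 1273 to 10707 against at most 1197 without Dox, Ryr1, the calcium release channel, 362 to 805 against at most 296, and Des, which encodes desmin, had a median of 7922 against 2085. Past the threshold upwards in iG+A and iGPA were Myl1 (4.83 and 2.74) and Myh3 (3.68 and 2.76). Medians were also higher for Mylpf (558 against 140), Tnnt1 (303 against 84.0), Tnnc2 (192 against 35.3) and Ckm (67.9 against 18.9). Medians with Dox in these lines were below or near those without it for Acta1 (40.5 against 73.6), Myh7 (179 against 458), Tnni1 (1845 against 2492), Actn3 (151 against 165) and Neb (152 against 142). Among the defining factors of the lineage, Myod1 and Myf5 were at 3.0 or below without Dox, were at 0 in at least 1 of the 8 Dox libraries with Atoh1 and reached at most 76.9 and 18.3 normalized counts there, and Myf6 reached at most 2.13. Myod1 was past the threshold upwards in iAtoh1 (2.70), iG+A (5.34) and iGPA (1.66) and was at -1.07 in iP+A, fitted values that depend on the pseudocount. The part of muscle cells in the Mybpc1 values was not tested. Of its own family, Mybpc3, the cardiac form, rose in iP+A (1.78), iGPA (3.34), iGfi1 (3.32) and iG+P (5.90) but was at -1.16 in iAtoh1. Mybpc2, the fast skeletal form, was past the threshold in 0 lines, and Mybph and Mybphl rose in iG+A (2.36 and 2.06) and iGPA (2.12 and 1.97), Mybphl also in iGfi1 (1.52).

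Ppp1r17 was highest in iAtoh1 and iP+A and lower where Gfi1 was added. Without Dox it held 9.03 to 99.2 normalized counts (median 23.2), highest in iG+P (99.2 and 55.1). With Dox it reached 3619 and 4303 in iAtoh1 and 4392 and 3674 in iP+A, which overlapped. The lines that add Gfi1 were lower, with 951 and 373 in iG+A and 1891 and 1689 in iGPA, and the 4 libraries without Gfi1 all lay above these 4, as for 14.6% of all genes tested. In the 6 Dox libraries without Atoh1 it was 30.3 to 103. The highest of these belonged to iG+P, whose Dox (103 and 83.5) and No Dox libraries overlapped.

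The Dox effect on Ppp1r17 was 6.39 ± 0.42 in iAtoh1, where 2 genes rose more, 7.40 ± 0.42 in iP+A, 6.57 ± 0.42 in iGPA and 4.80 ± 0.42 in iG+A. It was 0.37 ± 0.42 in iGfi1, 0.32 ± 0.42 in iG+P and 1.25 ± 0.42 in iPou4f3, and the Atoh1 lines exceeded the others by 5.64 ± 0.32. With Gfi1 joined to Atoh1 the effect differed by -1.59 ± 0.59 (-2.26 to -0.92 without 1 library), and with Gfi1 joined to Pou4f3 and Atoh1 by -0.83 ± 0.59. The first of these differences was -2.725 with all untreated libraries as 1 control group. On the linear scale the rise in iG+A (641) was 0.164 of the summed rises of iAtoh1 and iGfi1 (3922), and that in iP+A (4010) was 1.02 times its sum (3934).

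Markers of Purkinje cells, where Ppp1r17 is known, are given beside it. In iAtoh1, with Ppp1r17 at 3619 and 4303, 0 of 12 Purkinje markers rose and 2 fell, 5 of 12 rose in iG+A and 4 of 12 in iP+A and in iGPA, where Ppp1r17 was also high. They rose in 4 of 12 in iPou4f3 and in iG+P and in 2 of 12 in iGfi1 as well, where Ppp1r17 was at most 103, and 1 fell in each of iG+A, iP+A, iGfi1 and iG+P. Of all genes tested, 2.89% rose in iAtoh1, 7.35% in iG+A, 4.70% in iP+A, 8.65% in iGPA, 2.15% in iGfi1, 1.47% in iPou4f3 and 5.16% in iG+P. Whether cells of this kind had a part in its level was not tested. Their summed level ran from 3403 to 4739 without Dox and from 4675 to 6681 with it in iAtoh1, and it was 3649 to 3925 and 6318 to 7368 in iG+A, 3198 to 3406 and 6057 to 6126 in iP+A, and 2897 to 3199 and 10274 to 10706 in iGPA. Pcp2, a Purkinje-specific gene, rose in iG+A (4.86), iGPA (2.04) and iGfi1 (3.68), and Calb1, a calcium buffer of these cells, rose in 5 lines but was at 0.19 in iAtoh1 and 1.61 in iP+A. Both were at 0 in at least 1 No Dox library, at most 7.42 and 6.44 there, so their fitted values depend on the pseudocount. Medians with Dox in the Atoh1 lines were above those without it for Itpr1 (3276 against 1890), Rora (1223 against 875) and Foxp2 (287 against 121). The same held for Lhx1 (231 against 179), Gad2 (630 against 186) and Skor2 (14.7 against 1.70). They were below for Car8 (62.1 against 155), Gad1 (24.6 against 30.1), Pcp4 (148 against 155) and Lhx5 (5.59 against 6.14). Lhx1 rose in iG+A (1.77), iGPA (5.09) and iG+P (2.82), and Skor2, at 3.99 or below without Dox, in iP+A (2.95) and iGPA (4.00). Of 14 genes for other inhibitors of protein phosphatases, 2 rose in iAtoh1 (2.89% of all genes tested) and in iGPA (8.65%) and 1 each in iG+A (7.35%), iP+A (4.70%) and iG+P (5.16%). In iPou4f3 1 of them fell, as did 0.606% of all genes tested. Ppp1r14a, an inhibitor of myosin phosphatase, rose in all 4 Atoh1 lines (2.92, 3.30, 1.72 and 2.84 in iAtoh1, iG+A, iP+A and iGPA), and Ppp1r1a, an inhibitor of protein phosphatase 1, in iAtoh1 (1.58) and iGPA (1.87). Prkg1 and Prkg2, the kinases of which Ppp1r17 is a substrate, were past the threshold upwards in 0 lines and in iG+A alone (1.62), respectively.

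Btbd17 was highest where Gfi1 and Atoh1 were together. The No Dox libraries held 1.99 to 32.6 normalized counts (median 10.1), and with Dox it was 2576 and 3528 in iG+A and 3332 and 3477 in iGPA. In the Atoh1 lines without Gfi1 it was 512 and 487 in iAtoh1 and 385 and 382 in iP+A, all below those 4, as for 15.9% of all genes tested. Gfi1 with Pou4f3 and no Atoh1 gave 476 and 313 in iG+P, a range that takes in the values of iP+A, Gfi1 alone 162 and 66.6, and Pou4f3 alone 9.0 and 34.6, which overlapped its No Dox libraries (5.70 and 19.2). Of the 8 Dox libraries with Atoh1 the lowest (382) was under the highest without it (476), so these 2 sets overlapped. The lines without an Atoh1 cassette were not without Atoh1 RNA: Atoh1 rose from 4.11 and 3.02 to 32.5 and 24.8 normalized counts in iG+P (2.70 ± 0.33, limma adjusted p = 4.88e-06). In iGfi1 it rose as well, with 8.05 and 5.01 before and 27.1 and 31.9 after Dox (2.04 ± 0.33, limma adjusted p = 0.00025), and it was at 0.78 ± 0.33 in iPou4f3 (limma adjusted p = 0.217). Its part in the Btbd17 values was not tested.

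The Dox effect on Btbd17 was 9.12 ± 0.79 in iGPA and 8.60 ± 0.79 in iG+A, where 4 genes rose more. It was 5.37 ± 0.79 in iP+A, 5.22 ± 0.79 in iG+P, 4.77 ± 0.79 in iAtoh1, 2.91 ± 0.79 in iGfi1 and 0.70 ± 0.79 in iPou4f3. The mean effect of the Atoh1 lines exceeded that of the others by 4.03 ± 0.61. With Gfi1 added the effect was larger by 3.84 ± 1.12 than in iAtoh1 (2.62 to 5.05 without 1 library) and by 3.75 ± 1.12 than in iP+A (2.72 to 4.79). With Pou4f3 added it differed by 0.60 ± 1.12 and 0.52 ± 1.12, with ranges of -0.27 to 1.47 and -0.69 to 1.74 without 1 library. On the linear scale the rise in iG+A (3042) was 5.25 times the sum of the rises in iAtoh1 and iGfi1 (580), and that in iG+P (385) was 3.48 times its sum (111). Among 12 other genes with a BTB domain, 0 rose in iAtoh1 and iP+A, 2 in iG+A (7.35% of all genes tested) and 1 each in iGPA and iG+P (8.65% and 5.16%), namely Btbd11 in iG+A (3.14) and iGPA (2.77) and Lgals3bp in iG+A (1.54) and iG+P (2.16).

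**Figure D3:**
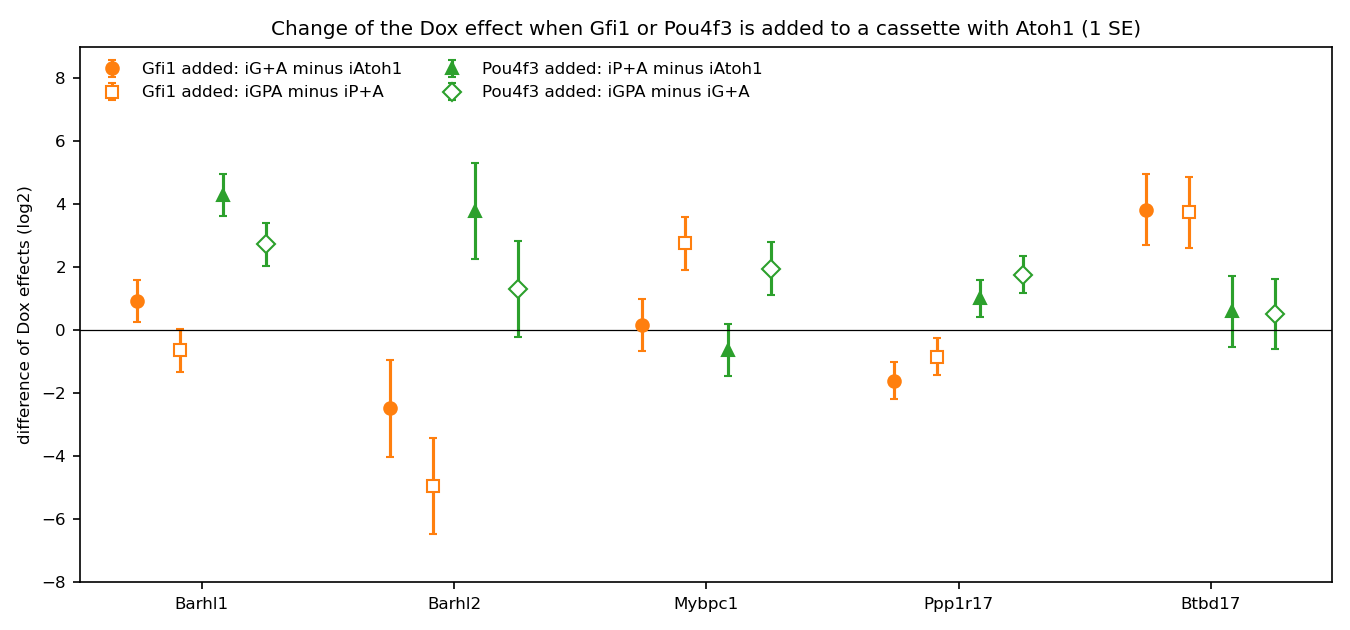
Difference between 2 Dox effects (y axis, log2 units) when Gfi1 (orange) or Pou4f3 (green) is added to a cassette that holds Atoh1, for each of the 5 genes, with bars of 1 SE. Gfi1 goes with a larger effect on Btbd17 (3.84 and 3.75) and a smaller one on Barhl2 (-2.48 and -4.95), and Pou4f3 with a larger one on Barhl1 (4.30 and 2.73).

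Set side by side, the mean change when Gfi1 was added to the Atoh1 lines was 3.79 ± 0.79 for Btbd17, 1.47 ± 0.59 for Mybpc1, 0.15 ± 0.48 for Barhl1, -1.21 ± 0.42 for Ppp1r17 and -3.71 ± 1.08 for Barhl2. For Pou4f3 it was 3.52 ± 0.48 for Barhl1, 2.55 ± 1.08 for Barhl2, 1.40 ± 0.42 for Ppp1r17, 0.67 ± 0.59 for Mybpc1 and 0.56 ± 0.79 for Btbd17. Added Gfi1 went with opposite signs for Btbd17 and Barhl2, while all 5 means for added Pou4f3 were above 0. The mean for Mybpc1 joins opposite signs, -0.62 ± 0.83 from iAtoh1 to iP+A (-1.05 to -0.19 without 1 library) and 1.97 ± 0.83 from iG+A to iGPA. These differences share libraries with each other and with the Dox effects.

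Atoh1 itself was already higher without Dox in the lines that carry it, at 29.6 to 120 normalized counts in 8 libraries against 3.02 to 13.4 in 6, a difference of 3.23 ± 0.18 on the log2 scale (limma adjusted p = 3.3e-09), and 0.119% of all genes passed that test. An exact two-sided permutation test over the 7 lines gave p = 0.0571, the smallest that its 35 arrangements allow. Transgene and endogenous Atoh1 cannot be told apart in these counts. The untreated levels of the 5 genes enter the Dox effects on which they were chosen and are given with no test. Between the same untreated groups Barhl1 differed by 0.37 ± 0.26, Mybpc1 by -0.67 ± 0.32, Ppp1r17 by -0.33 ± 0.23 and Btbd17 by -0.33 ± 0.43. The untreated Barhl2 values were too near 0 to compare. With all untreated libraries as 1 control group, Mybpc1 in the Atoh1 lines exceeded the others by 6.38 in place of 7.06.

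The nearest genes in the fit on each side, taken by position only, were tested in the same limma fit. Of the 10, 6 were past the threshold in 0 lines: Ddx31, which ends 2108 bp from the end of Barhl1 on the opposite strand and whose effects were -0.28 to 0.18, Zfp326 and Zfp644 beside Barhl2, Chpt1 and Spic beside Mybpc1, and Itprid1 beside Ppp1r17, whose effect of -1.58 in iGPA passed only with the replicate number as a block (limma adjusted p = 0.0184). Spic passed downwards in iGPA with a pseudocount of 0.5 (-2.54, limma adjusted p = 0.0447) and with all untreated libraries as 1 control (-2.67, limma adjusted p = 0.00243) and without any of 3 libraries, and in iG+A without the second Dox library (-3.30, limma adjusted p = 0.00682). The genes on both sides of Btbd17 rose with it in most lines. Kif19a, a kinesin known for control of cilium length, ends 478 bp from the end of Btbd17 on the opposite strand. Gpr142, a G-protein-coupled receptor, starts 2979 bp from the start of Btbd17 and runs away from it. Strand was not stated for the counting, and the annotated genes do not overlap.

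Kif19a was 46.0 to 100 normalized counts without Dox. With Dox it was 2532 and 2965 in iGPA, 2145 and 1725 in iP+A, 1520 and 1098 in iG+A, 298 and 263 in iAtoh1, 365 and 488 in iG+P, 178 and 231 in iGfi1 and 89.0 and 114 in iPou4f3. It rose in 6 of 7 lines (limma adjusted p from 1.08e-10 to 0.000217), with 4.91 ± 0.28 in iP+A against 1.72 ± 0.28 in iAtoh1. The gain from Pou4f3 there was 3.19 ± 0.39 (limma adjusted p = 5.42e-05), where that of Btbd17 was 0.60 ± 1.12. In iAtoh1 the Kif19a effect was 1.47 without the first No Dox library, below the threshold.

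Gpr142 was at 12.7 or below in the No Dox libraries. With Dox it was 209 and 287 in iG+A, 161 and 212 in iGPA, 80.5 and 74.7 in iG+P and 35.8 and 13.4 in iGfi1, and no more than 11.5 in the 6 Dox libraries without Gfi1, a separation that 3.84% of all genes tested showed, though the highest No Dox library (12.7, in iAtoh1) came close to the lowest with Gfi1. All other No Dox values were at 5.0 or below, so its fitted effects depend on the pseudocount. It rose in iG+A (6.71 ± 0.65, limma adjusted p = 2.95e-07), iGPA (6.02 ± 0.65, limma adjusted p = 6.37e-07), iG+P (4.33 ± 0.65), iGfi1 (2.44 ± 0.65) and iP+A (2.28 ± 0.65) and was at -0.07 ± 0.65 in iAtoh1, where Btbd17 was at 500. The gain from Gfi1 was 6.78 ± 0.92 over iAtoh1 (limma adjusted p = 7.05e-05) and 3.74 ± 0.92 over iP+A (0.00815). The calls in iP+A and iGfi1 were lost without certain libraries: the iP+A effect was 1.95 without its second No Dox library (limma adjusted p = 0.11), and the iGfi1 effect 1.76 without its first Dox library (limma adjusted p = 0.149).

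**Figure D4:**
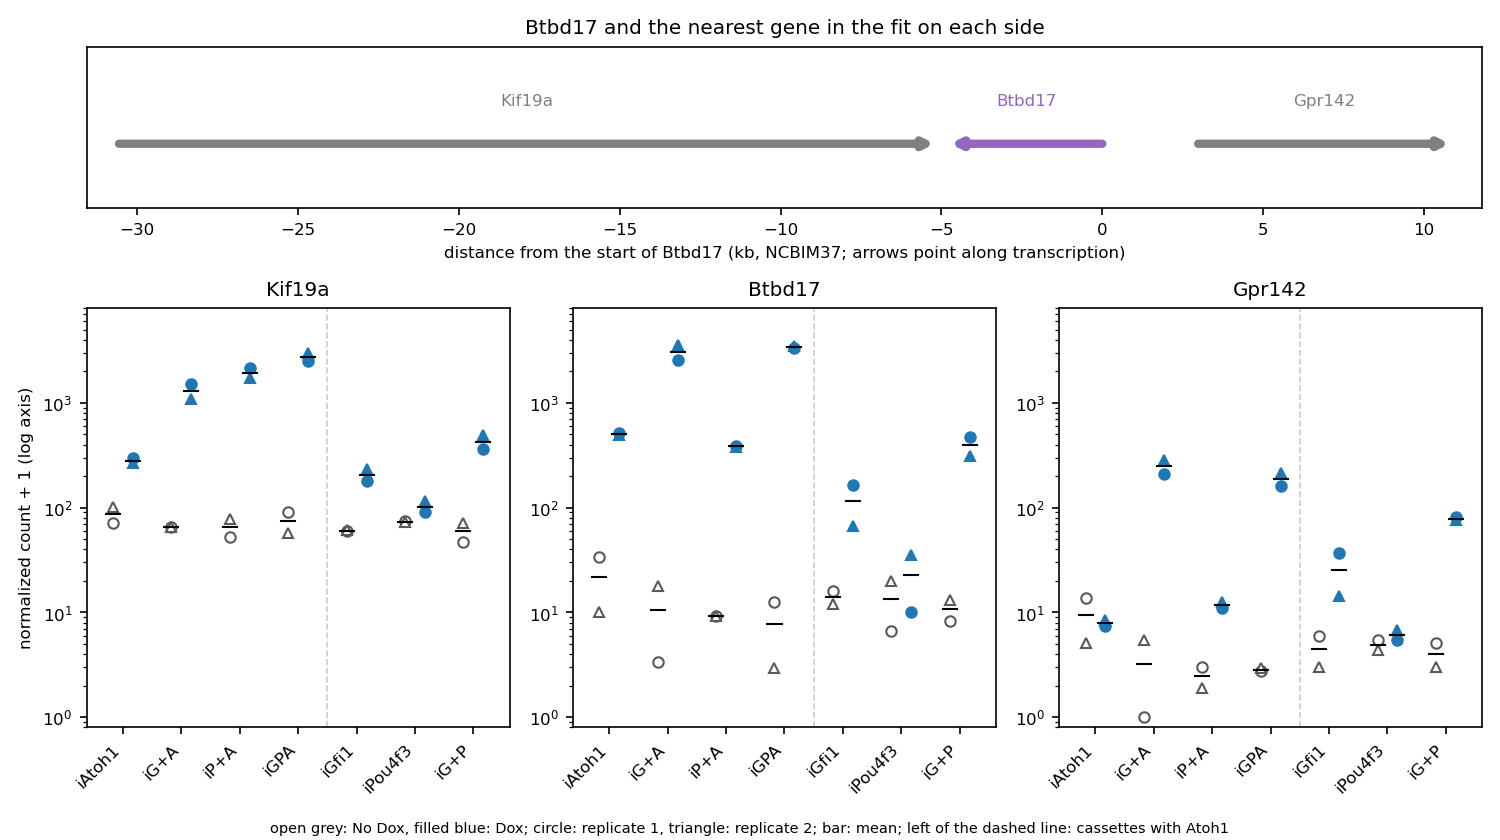
Top, Kif19a, Btbd17 and Gpr142 drawn to scale by distance in kb from the start of Btbd17 (mm9), with arrows along transcription. Bottom, normalized count + 1 (log axis) of each by line, with open symbols for No Dox and filled symbols for Dox. Gpr142 is at 13.4 or more in the 8 Dox libraries with Gfi1 and at 11.5 or less in the 6 without, a split that 3.84% of all genes tested showed. Kif19a is highest in iGPA, iP+A and iG+A.

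Farther away, Cfap77, a gene of cilia and flagella 38705 bp from the start of Barhl1, rose in iG+A (2.88 ± 0.52, limma adjusted p = 0.000234), iGPA (2.19 ± 0.52, limma adjusted p = 0.00195) and iG+P (2.57 ± 0.52, limma adjusted p = 0.000731), and was at -1.03 ± 0.52 in iP+A, where Barhl1 was near its highest. Without the first No Dox library of iP+A that value was -1.74 (limma adjusted p = 0.0406), past the threshold downwards. Its gain from Gfi1 was 2.90 ± 0.73 over iAtoh1 (limma adjusted p = 0.011) and 3.22 ± 0.73 over iP+A (0.0047). Pde1c, a calmodulin-dependent phosphodiesterase gene 37133 bp from Ppp1r17, rose in iAtoh1 (1.71 ± 0.22, limma adjusted p = 2.5e-05) and iGPA (1.53 ± 0.22, limma adjusted p = 1.8e-05), the latter falling to 1.44 without the first Dox library and thus below the threshold. Its mean effect in the Atoh1 lines exceeded that in the others by 0.71 ± 0.17 (limma adjusted p = 0.00338).

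The 3 genes most like each member were taken by Pearson's r over the 28 libraries on the log2 scale, among 14789 genes with at least 50 normalized counts in 2 libraries, as a description. For Btbd17 they were Dll3 (r = 0.974), a ligand-family gene of the Notch pathway, C2cd4c (r = 0.971) and Fam222a (r = 0.958). Dll3 had Dox effects of 4.83 in iAtoh1, 6.22 in iG+A, 4.63 in iP+A, 6.94 in iGPA, 3.03 in iGfi1, 3.46 in iG+P and 0.41 in iPou4f3. The lines stood in the same order for Btbd17, except that iAtoh1 came after iP+A and iG+P there. For Ppp1r17 they were Septin3 (r = 0.974), a neuronal septin, Sct (r = 0.967), which encodes secretin, and Rbm24 (r = 0.963), an RNA-binding splicing factor. For Mybpc1 they were the antisense gene Foxd2os (r = 0.959), Cntnap1 (r = 0.954), an axonal membrane protein gene, and Syt13 (r = 0.954), a synaptotagmin.

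For Barhl1 they were Nkain4 (r = 0.959), Insm1 (r = 0.958), a zinc finger factor of neuronal progenitors, and Prrxl1 (r = 0.950), a homeodomain factor of sensory neurons. For Barhl2 the closest were less like it: Ypel1 (r = 0.878), Tubb3 (r = 0.870), the neuronal beta-tubulin, and Myo16 (r = 0.867). Tubb3 had Dox effects of 5.40 in iP+A, 2.22 in iAtoh1, 1.17 in iGPA and -0.86 in iG+A. The 28 points share the split between Dox and No Dox, and between sorted cells and whole EBs.

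The other genes around these 5 were counted in lists written with earlier results of these data known. Of 20 genes of Atoh1-derived neurons tested, 12 rose in iAtoh1, 15 in iG+A, 14 in iP+A and 15 in iGPA, against 4 in iGfi1, 3 in iPou4f3 and 8 in iG+P, with medians of 2.37, 3.55, 2.96, 3.72, 0.58, 0.25 and 0.76 where the median of all genes was within 0.03 of 0 in each line. Of these 20, 1 fell in each of iG+A, iGfi1 and iG+P. Insm1 (3.53, 7.86, 8.17 and 8.93 in iAtoh1, iG+A, iP+A and iGPA) and the helix-loop-helix genes Nhlh1 (5.14, 5.41, 7.19 and 9.29) and Nhlh2 (4.73, 5.16, 6.99 and 5.49) rose in all 4 Atoh1 lines. Nhlh2 and, in the next list, Lbx1 and Dbx1 were at 5.86, 3.90 and 9.77 or below without Dox and at 0 in at least 1 such library, so their fitted values depend on the pseudocount. Neurod6 was not analysed here. Of 19 homeobox genes of the same class as the Barhl pair, 3 rose in iAtoh1, 5 in iG+A, 4 in iP+A and 6 in iGPA, and without Atoh1 1 in iGfi1, 0 in iPou4f3 and 5 in iG+P. In the same list 3 fell in iG+A, 2 in iGPA, 3 in iG+P and 1 in iGfi1. Over all genes tested, the shares that rose were 2.89%, 7.35%, 4.70%, 8.65%, 2.15%, 1.47% and 5.16% in iAtoh1, iG+A, iP+A, iGPA, iGfi1, iPou4f3 and iG+P, and those that fell were 4.95%, 5.31%, 5.36% and 2.67% in iG+A, iGPA, iG+P and iGfi1, so that 1 of 19 in iGfi1 is close to the share of all genes in either direction. Those that rose in the Atoh1 lines include Tlx2 (5.46, 6.76, 2.86 and 6.86) and Lbx1 (5.54, 5.29, 2.48 and 6.42). Dbx1 rose in iG+A (7.98) and iGPA (8.61) and was at 0.56 in iAtoh1 and -0.69 in iP+A, and Barx1 rose in iG+A (3.93), iP+A (1.92), iGPA (4.10) and iG+P (2.78).

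**Figure D5:**
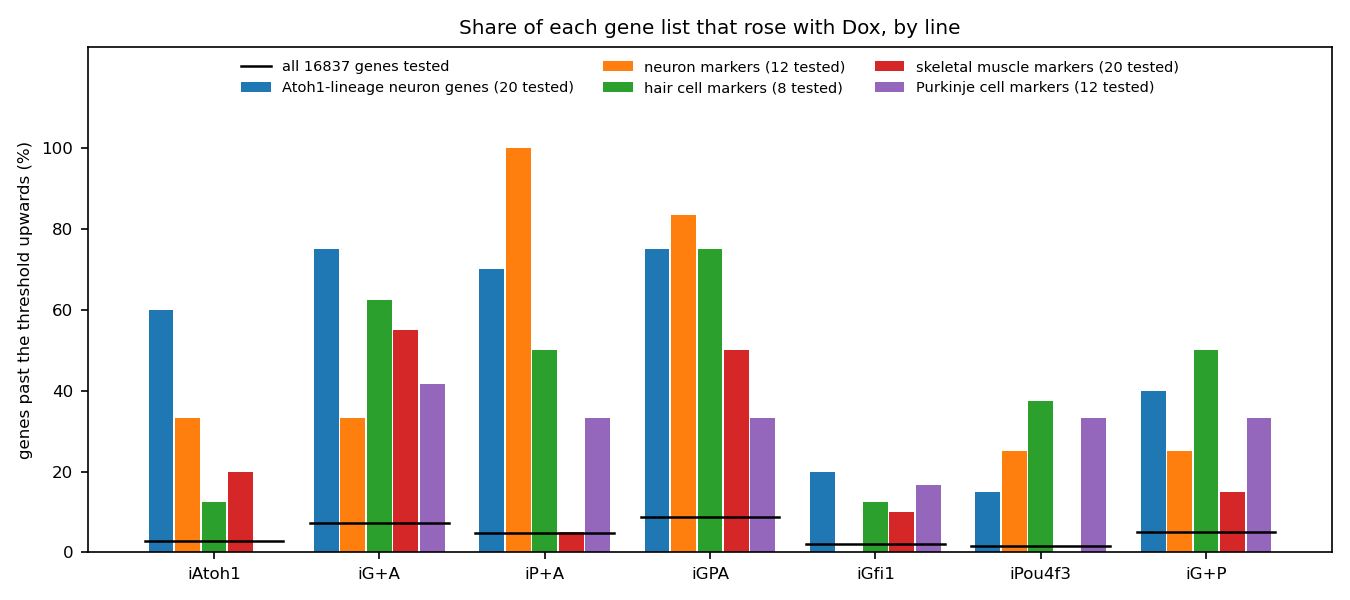
Percent of the tested genes of 5 lists that were past the threshold upwards with Dox (y axis, bars) in each of the 7 lines, with a black line for the percent of all genes tested. All 12 neuron markers rose in iP+A, and in that line 1 of 20 muscle markers did.

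General neuron markers rose in 12 of 12 in iP+A, in 10 of 12 in iGPA, in 4 of 12 in iAtoh1 and iG+A, in 3 of 12 in iPou4f3 and iG+P and in 0 of 12 in iGfi1, and 1 fell in iG+A, iGPA, iGfi1 and iG+P. Their summed level was 23203 to 29320 with Dox in iP+A against 8304 to 8348 in iGPA, 3962 to 4292 in iPou4f3, 2389 to 3389 in iAtoh1, 2009 to 2336 in iG+P, 1339 to 1652 in iG+A and 948 to 979 in iGfi1. Barhl2 was highest in iP+A too. Of the 4 Atoh1 lines its mean was lowest in iG+A, where its libraries (0 and 12.2) overlapped those of iGPA (21.5 and 5.05). Barhl1, however, was as high in iGPA as in iP+A. Elavl4, which encodes a neuronal RNA-binding protein, had effects of 5.30 in iP+A, 4.93 in iGPA and 0.55 in iG+A. Hair cell markers, which here include the cassette genes Gfi1 and Pou4f3, rose in 6 of 8 in iGPA, in 5 of 8 in iG+A, in 4 of 8 in iP+A and iG+P, in 3 of 8 in iPou4f3 and in 1 of 8 in iAtoh1 and iGfi1. Lhx3, a LIM homeodomain gene of hair cells and motor neurons, rose in iG+A (4.74), iP+A (4.61) and iGPA (7.76), fitted values that depend on the pseudocount since it was at 4.81 or below without Dox and at 0 in at least 1 such library. Of all genes tested, between 1.47% (iPou4f3) and 8.65% (iGPA) rose in a line.

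Markers of other cells of the EB differed between Dox and No Dox libraries as well. Of all genes tested, 2.52% fell in iAtoh1, 4.95% in iG+A, 2.58% in iP+A, 5.31% in iGPA, 2.67% in iGfi1, 0.606% in iPou4f3 and 5.36% in iG+P. Blood markers fell in 6 of 9 in iAtoh1, iG+A and iP+A and in 5 of 9 in iGPA, against 0 of 9 in iGfi1 and iPou4f3 and 1 of 9 in iG+P, Hbb-bh1, an embryonic globin, by 3.57 in iAtoh1. Fibroblast markers fell in 3 of 9, 5 of 9, 1 of 9 and 8 of 9 in iAtoh1, iG+A, iP+A and iGPA, and in 2, 0 and 6 of 9 in iGfi1, iPou4f3 and iG+P. Pluripotency markers fell in 0, 4, 6 and 4 of 9 in the 4 Atoh1 lines, in 0 of 9 in iGfi1 and iPou4f3 and in 2 of 9 in iG+P, and of 11 germ layer markers 1 rose in iG+A and in iGPA, Sox1 (5.86 and 5.31), an early neural factor, while 1 fell in iG+A, 1 in iPou4f3 and 2 in iG+P. The part of this change of cell make-up in the values of the 5 genes was not tested.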

How the data were processed

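RNA-seq was made from total RNA with an mRNA library kit in 28 libraries, 2 for each of 14 groups. The authors trimmed reads with cutadapt, assigned them to UCSC knownGene transcripts of mm9 with kallisto, used tximport to obtain gene totals and scaled these with DESeq2 (versions not given in the sources used here). The deposited values are log2(normalized count + 1) for 19421 genes, of which 107 carry no symbol. Whole reads could not be recovered, so no count model was run, and depth was estimated from the step between low values. Cassette and endogenous transcripts of a factor are not separated in these values.

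Genes with at least 10 normalized counts in 2 libraries (16837) entered limma 3.58.1 in R 4.3.3 (trend, 14 group means, 14 residual degrees of freedom, Benjamini-Hochberg per contrast). Permutation tests used scipy 1.17.1. On simulated data with known changes the fit was tested before use. The deviations of the same-numbered Dox and No Dox libraries correlated at 0.103 to 0.246 in all 7 lines. Replicate numbers were therefore taken to pair the libraries of a line in an alternative fit with a replicate block. The main fit, with its SEs and p-values, left this pairing out. The replicates of a group correlated at 0.9798 to 0.9907 and no 2 libraries held identical values.

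The 5 genes, the gene lists and the tests were chosen with earlier results of these data known. Genes named beside the 5 are the nearest tested genes on each side, the 3 most like each by Pearson's r, and, of each list, up to 4 members with the largest absolute mean effect in the Atoh1 lines among those past the threshold in at least 1 of them (all members for lists of 5 or fewer). Further muscle and Purkinje markers are named with their levels, outside this rule. Alternatives were the pseudocount, the filter, quantile normalization, 75th percentile rescaling, limma without the trend, a pooled control, only the groups compared, a replicate block and leaving out each library. Counts were also taken at a log2 change of at least 1.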

Additional observations from a re-analysis of the deposited data

Results flagged for a closer look

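Effects of Dox that differed between lines are given here. For the 5 genes they were selected on the same contrasts and carry no test. The Barhl1 effect was larger by 4.30 in iP+A than in iAtoh1 and by 2.73 in iGPA than in iG+A, the latter 1.77 to 3.69 without 1 library. The Barhl2 effect in iGPA differed from that in iP+A by -4.95. The Mybpc1 effect was larger by 2.77 in iGPA than in iP+A, and by 1.73 with all untreated libraries as 1 control group. In the No Dox libraries of iGPA Mybpc1 was only 2.62 and 3.93 normalized counts. The Btbd17 effect was larger by 3.84 in iG+A than in iAtoh1 and by 3.75 in iGPA than in iP+A.

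For neighbouring genes the difference itself passed the limma test. With Gfi1 added to iAtoh1 and to iP+A, Cfap77 beside Barhl1 was larger by 2.90 and 3.22, and Gpr142 beside Btbd17 by 6.78 and 3.74. Kif19a, on the other side of Btbd17, was larger by 2.58 in iG+A and by 3.19 in iP+A than in iAtoh1.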

How the results depend on the processing

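Of 821 recomputed values of the 22 comparisons, 815 moved by less than the spread between replicates or, for counts, by less than 1.5 times. The 6 that moved did so with all untreated libraries as 1 control group: Mybpc1 in Atoh1 lines against the others was 6.38, added Gfi1 (mean) gave -4.92 for Barhl2, -1.95 for Ppp1r17 and 2.87 for Btbd17, and added Pou4f3 gave 0.014 for Mybpc1 and 0.80 for Ppp1r17. The cause was not tested. Without 1 library at a time, Atoh1 lines against the others ran from 0.49 to 1.43 for Barhl2, added Gfi1 from -0.33 to 0.63 for Barhl1, and added Pou4f3 from -0.04 to 1.17 for Btbd17, the latter 2 crossing 0. Without the first Dox library of iG+A, where Barhl2 was at 0, its difference from iAtoh1 was -0.62. Over all 9935 recomputed values, single genes, lists and counts included, 162 moved, and among neighbouring genes 11 lost a call and 8 gained 1. With a replicate block the paired estimates were those without it (3.60 for Barhl1 in Atoh1 lines against the others). Itprid1 in iGPA (-1.58) passed the threshold only with this block (limma adjusted p = 0.0184), and the block changed no other call of a neighbouring gene. Over all genes, only the groups compared gave 226 in place of 424 genes down in iAtoh1, 192 in place of 435 in iP+A, and in iPou4f3 117 in place of 248 up and 18 in place of 102 down. Without the first iGfi1 Dox library 223 in place of 362 genes were up and 291 in place of 449 down, without the first iP+A Dox library 233 were down there, and in iPou4f3 15 to 67 were down without any 1 of its 4 libraries. At a log2 change of at least 1, 775 genes were up and 715 down in iAtoh1, 1342 down in iG+A, 790 down in iP+A, 1368 down in iGPA, 656 up and 991 down in iGfi1, 157 down in iPou4f3, and 1326 up and 1417 down in iG+P. Low counts limit Barhl2 most, since its untreated values lie near what 3 reads are worth.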
